A study of Rattus norvegicus with 48 samples.

Results

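The genes described here are 6 metabotropic glutamate receptors, Grm2, Grm3, Grm4, Grm5, Grm7 and Grm8, and the 3 Homer scaffold genes, Homer1, Homer2 and Homer3. They were taken as the table entries bearing those names, which gave 9 of 32883 entries, and 9 of 9 were among the 15580 genes kept by the expression filter. RNA on tagged ribosomes was pulled down from nucleus accumbens punches of adult male and female rats with antibodies to GFP, a method called translating ribosome affinity purification (TRAP). The D1:Cre rats marked medium spiny neurons that carry the dopamine D1 receptor, and the A2a:Cre rats marked those that carry the adenosine A2a and dopamine D2 receptors. Each genotype was sampled in 8 animals that took saline and were killed on withdrawal day 1, 8 that took cocaine and were killed on day 1, and 8 that took cocaine and were killed on day 40, always after 10 self-administration sessions. The 6 groups thus shared the procedure and the tagged ribosomes, while no saline group was sampled at day 40. The Cre driver differed between the D1 and the A2a groups, so driver line and neuron type cannot be told apart. The sources used here do not say how the tag was delivered or which sex each library came from. The title of the series ties the late time point to incubation of craving, the growth of cocaine seeking during withdrawal.

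Metabotropic glutamate receptors couple to G proteins. Group I receptors, of which Grm5 encodes mGlu5, act through Gq and phospholipase C, release internal calcium and set AMPA receptor number at striatal synapses, and in rats they are known to regulate AMPA receptors during incubation of craving. Group II receptors (Grm2, Grm3) and group III receptors (Grm4, Grm7, Grm8) act through Gi and Go, and many of them sit on axon terminals, where they lower transmitter release. Homer proteins bind the tail of group I receptors and link it to Shank scaffolds and to calcium stores, and Homer1 also gives a short form induced by activity that breaks this link. The counts are per gene, so the short and long forms of Homer1 were not separated. In pulled-down RNA, fewer marked cells and less RNA per cell cannot be told apart.

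Library totals ran from 5293586 to 55095383 counts, and 47 of 48 libraries held at least 24538643. The exception was replicate 7 of the A2a cocaine day 1 group, which also stood apart in 4 of the 9 genes, so results that rest on it are given with and without it. Both neuron types carried their own markers. The summed level of 7 D1 markers was 1194 to 2420 CPM (the usual rate of counts over the scaled library total) in D1 libraries and 251 to 437 CPM in A2a libraries, and that of 8 A2a markers was 934 to 2225 CPM in D1 and 8241 to 14250 CPM in A2a libraries. Markers of other cells were present too. Oligodendrocyte markers summed to 2945 to 6590 CPM, and 8 interneuron markers summed to 652 to 1517 CPM in D1 libraries but to 152 to 370 CPM in A2a libraries, with 1 of the 8 at 0 in every library. A number in the library descriptions, whose meaning the labels do not state, was 85 for all D1 day 40 libraries and 88 for all A2a day 40 libraries, while 89, 91 and 92 were spread over the day 1 groups. It and withdrawal day therefore cannot be told apart, nor can it and neuron type at day 40.

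None of the 9 genes passed the test in any of the 6 cocaine comparisons (edgeR quasi-likelihood test, Benjamini-Hochberg adjusted p under 0.05 over all 15580 genes). In D1 neurons, the count was 0 of 9 for cocaine day 1 against saline, where 0% of all genes passed, 0 of 9 for day 40 against day 1, where 1.85% passed, and 0 of 9 for day 40 against saline, where 2.61% passed. In A2a neurons it was 0 of 9 in the same comparisons, where 0.0706%, 0.263% and 0% of all genes passed. At an unadjusted p under 0.05 the numbers of members were 0, 0 and 2 in D1 and 2, 2 and 0 in A2a neurons, in that order. Of all genes, 2.33%, 15.3% and 16.2% met that rule in D1 and 5.98%, 10.5% and 5.38% in A2a neurons. The median log2 change over the 9 members lay between -0.07 and 0.09, against -0.00767 to 0.000311 for all genes. Leaving out the shallow A2a library raised the count by 1, for Grm5 in D1 neurons at day 40 against saline, where 3.32% of all genes then passed. DESeq2 added the same gene there and at day 40 against day 1.

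**Figure D1:**
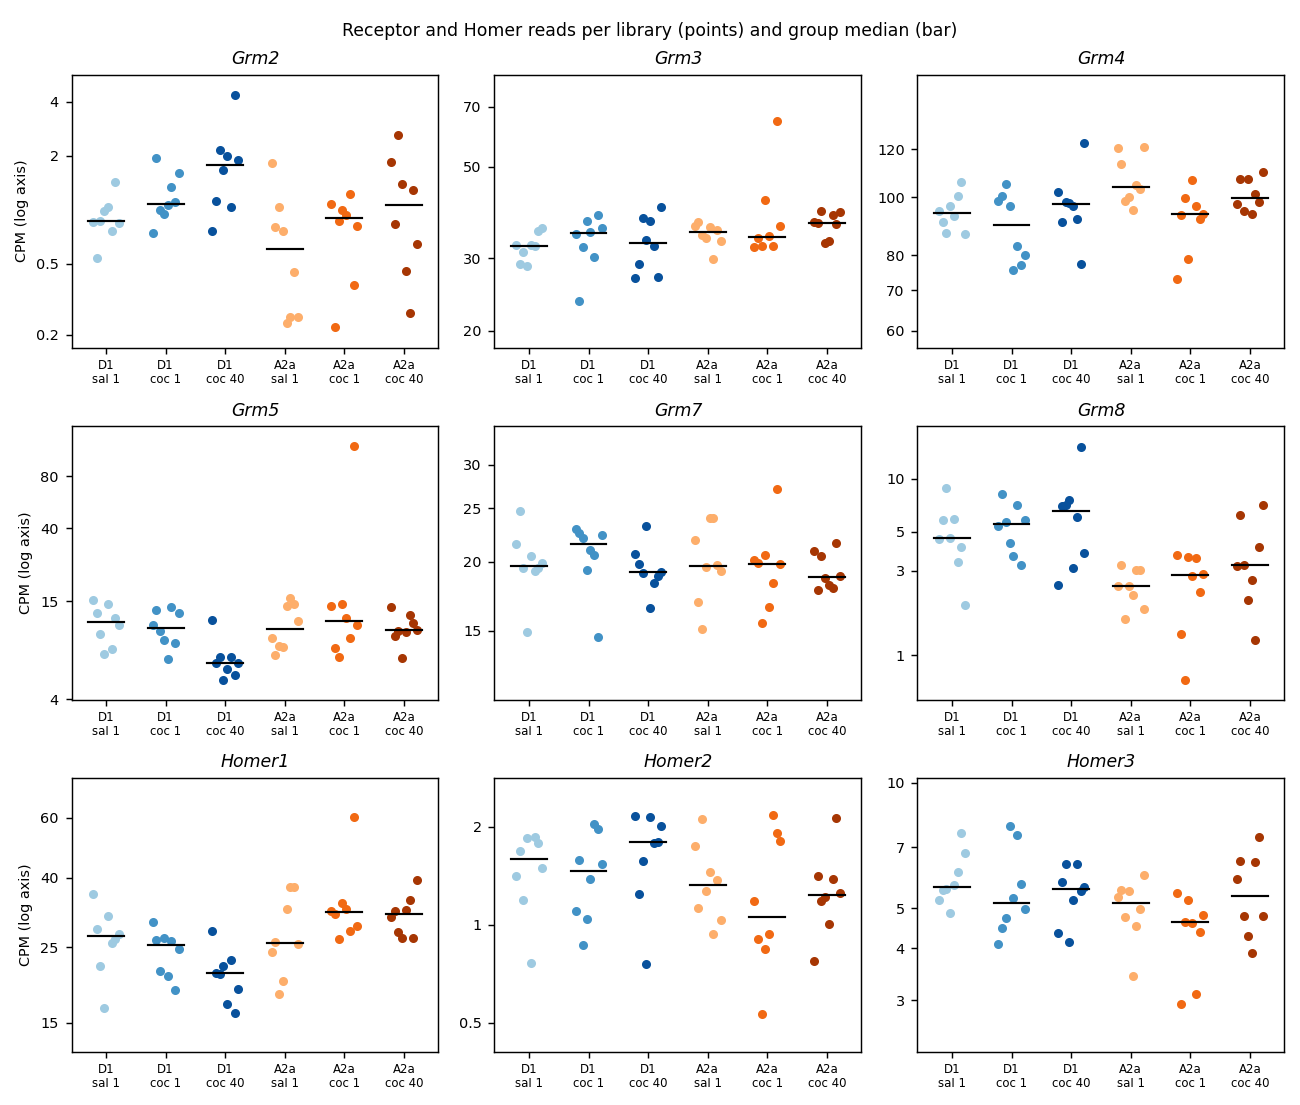
Each panel plots 1 gene, with CPM on a log axis against the 6 groups (sal, saline; coc, cocaine; 1 and 40, withdrawal day); points are libraries, 8 per group, and bars are group medians. Grm5 sits lowest in D1 cocaine day 40, Grm8 is higher in D1 than in A2a groups, and 1 A2a cocaine day 1 library reaches 121 CPM for Grm5.

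**Figure D2:**
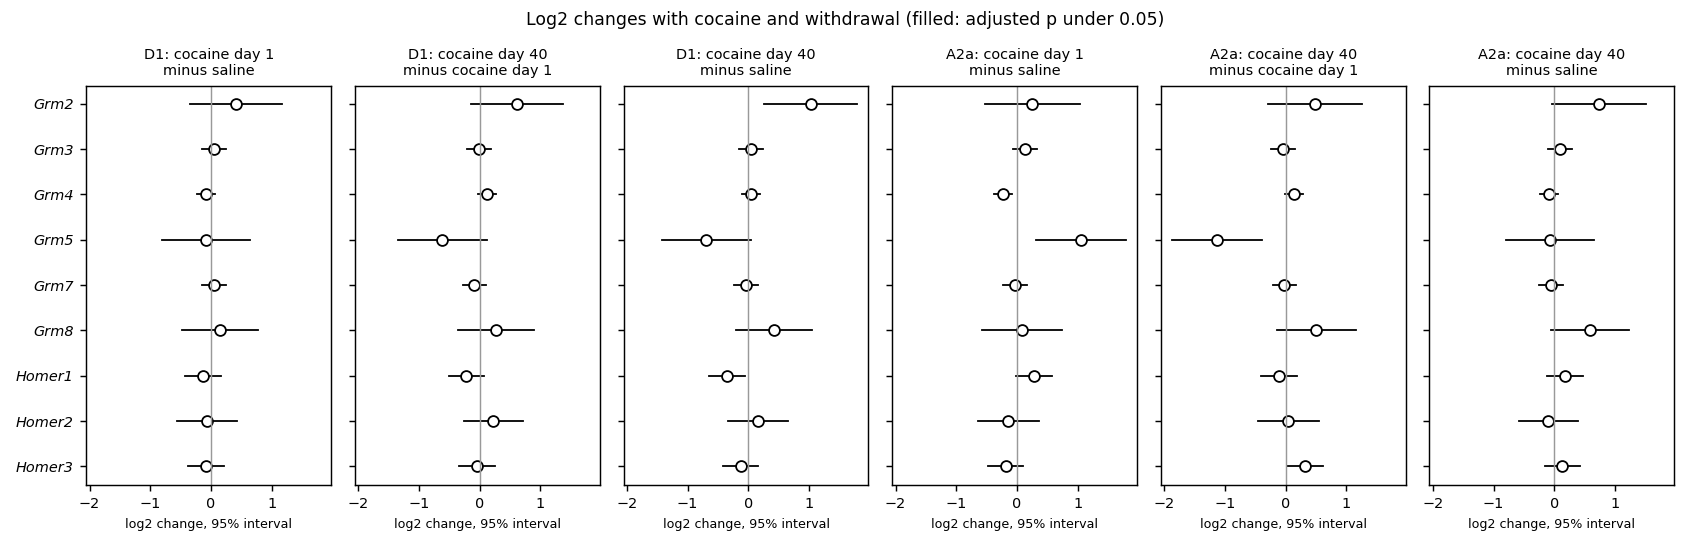
Log2 changes of the 9 genes in the 6 cocaine comparisons, with the change and its 95% interval on the horizontal axis and the genes on the vertical axis. No point is filled, which would mark an adjusted p under 0.05, and the widest departures from 0 are those of Grm2 and Grm5.

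Grm5, the group I receptor, had its lowest group mean in D1 neurons at day 40 of withdrawal, and whether the difference passed the test depended on 1 library. Its levels in D1 cocaine day 40 ran from 5.18 CPM through a median of 6.5 to 11.7 CPM, in D1 cocaine day 1 from 6.91 through 10.5 to 13.8 CPM, and in D1 saline from 7.32 through 11.4 to 15.2 CPM. Of the 8 D1 day 40 libraries, 7 lay below every saline library and 5 below every cocaine day 1 library, while replicate 1 lay among the others. The means were 6.95 ± 2.03 CPM (SD, n = 8) at day 40, 10.6 ± 2.50 CPM at cocaine day 1 and 11.2 ± 2.90 CPM in saline. The log2 change from saline to day 40 was -0.69 ± 0.37 (SE; adjusted p = 0.348 by edgeR's quasi-likelihood test), and that from day 1 to day 40 was -0.61 ± 0.36 (adjusted p = 0.439).

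Much of the spread behind these errors came from 1 library outside the groups compared. Grm5 in A2a cocaine day 1 ran from 7.07 through a median of 11.4 to 121 CPM; the highest was the shallow replicate 7, with 632 Grm5 counts, and the next highest was 14.5 CPM. The 6 groups share 1 estimate of the spread per gene, so leaving out that library kept the D1 changes and narrowed their errors. The day 40 change from saline was then -0.69 ± 0.18 (adjusted p = 0.0223, edgeR quasi-likelihood test, where 3.32% of all genes passed), and that from day 1 was -0.61 ± 0.18 (adjusted p = 0.0546, where 2.18% passed). A fit of the D1 day 40 and saline libraries alone gave an adjusted p of 0.0305, and DESeq2 on all 48 libraries gave 0.00667 against saline and 0.0272 against day 1. Microglial markers differed between the same groups. Their sum was 109 to 204 CPM in D1 day 40 libraries, against 163 to 478 CPM in D1 saline and 109 to 432 CPM in D1 cocaine day 1. From saline to day 40, 3 of 8 of them fell, where 2.61% of all genes passed in either direction. None of the 8 was at 0 in every library. Between libraries of a group, Grm5 deviations from the group means correlated with those of the microglial sum at r = -0.402 and rho = -0.353 (n = 48). The unadjusted permutation p was 0.0186 and 0.02, and the adjusted values, 0.0752 and 0.0898, did not pass. Without the 2 farthest libraries r was -0.431. Within numbers 85, 88, 89, 91 and 92 it was -0.394, 0.0508, -0.587, -0.0565 and -0.789. The part of microglial RNA in the Grm5 result was not tested.

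In A2a neurons the Grm5 levels of saline and day 40 overlapped. Its level was 7.29 through a median of 10.3 to 15.6 CPM in saline and 7.02 through 10.1 to 13.8 CPM at cocaine day 40. The log2 change was -0.07 ± 0.36 (adjusted p = 0.999, edgeR quasi-likelihood test). With all libraries the A2a change from saline to cocaine day 1 was 1.05 ± 0.37 (adjusted p = 0.583) and from day 1 to day 40 it was -1.13 ± 0.37 (adjusted p = 0.182). Without replicate 7 these were -0.03 ± 0.18 and -0.04 ± 0.18, and the A2a cocaine day 1 mean was 10.8 ± 2.89 CPM (SD, n = 7). The D1 and A2a changes from saline to day 40 were not shown to differ: the interaction was -0.62 ± 0.51 (adjusted p = 0.766, edgeR quasi-likelihood test), and -0.61 ± 0.25 (unadjusted p = 0.0197, adjusted p = 0.37, where 0.166% of all genes passed) without that library.

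The upstream 250 bases of Grm5, Homer1 and Grm7 are shown because the levels of these 3 genes varied together from library to library within groups, as described further on. RefSeq annotation of the GRCr8 rat assembly, which is not the assembly of the counts, held a start site for 5 of the 9 genes. The sequences run 5′ to 3′ up to the base before the annotated start, and capitals mark motif matches on either strand.
Grm5 (chr1:150733503-150733752, plus strand): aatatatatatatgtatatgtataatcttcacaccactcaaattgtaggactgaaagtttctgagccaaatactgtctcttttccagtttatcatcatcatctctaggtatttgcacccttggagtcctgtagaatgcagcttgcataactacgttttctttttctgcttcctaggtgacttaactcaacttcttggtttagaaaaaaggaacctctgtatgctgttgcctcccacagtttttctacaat
Grm7 (chr4:145286476-145286725, plus strand): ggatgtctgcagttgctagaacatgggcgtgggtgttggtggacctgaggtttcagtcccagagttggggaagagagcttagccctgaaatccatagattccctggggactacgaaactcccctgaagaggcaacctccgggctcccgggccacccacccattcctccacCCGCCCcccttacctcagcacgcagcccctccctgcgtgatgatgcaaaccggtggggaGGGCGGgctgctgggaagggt
Homer1 (chr2:26278762-26279011, plus strand): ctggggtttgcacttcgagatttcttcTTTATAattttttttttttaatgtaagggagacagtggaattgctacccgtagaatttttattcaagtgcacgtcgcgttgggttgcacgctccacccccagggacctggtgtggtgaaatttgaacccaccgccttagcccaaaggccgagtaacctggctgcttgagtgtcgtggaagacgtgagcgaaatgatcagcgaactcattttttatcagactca
The motifs searched on both strands were the cAMP response element TGACGTCA and its core TGACG, which the former contains, the AP-1 site TGANTCA, the TATA box TATAAA and the GC box GGGCGG. They are held by 1.59%, 18.2%, 6.34%, 12.9% and 30.5%, in that order, of 33469 rat promoters cut to the same 250 bases. Grm7 held 2 GC boxes, Homer1 held 1 TATA box letter match on the minus strand whose first base lay at -223 from the start, and Grm5 held no match. GC content was 36.4% for Grm5, 46.4% for Homer1 and 62% for Grm7, against a median of 51.2% over those promoters.

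Homer1, a scaffold of group I receptors, was lower in D1 than in A2a neurons at cocaine day 40. At cocaine day 40 it ran from 16.1 through a median of 21.0 to 27.9 CPM in D1 and from 26.6 through 31.3 to 39.5 CPM in A2a libraries. Of the 8 D1 libraries, 7 lay below every A2a library, and replicate 1 lay above the lowest A2a libraries. The means were 20.8 ± 3.73 and 31.2 ± 4.38 CPM (SD, n = 8 each), a log2 difference of -0.58 ± 0.15 (adjusted p = 0.00323, edgeR quasi-likelihood test). The difference passed in 16 of 16 fits that left out 1 library of these groups, with values from -0.65 to -0.52, and was -0.57 ± 0.13 without the shallow A2a day 1 library (adjusted p = 0.000913). The D1 libraries carried the description number 85 and the A2a libraries 88, which cannot be told apart from neuron type here. Of the microglial markers, 6 of 8 were lower in D1 libraries in the same comparison, where 10.3% of all genes were. Their sums were 109 to 204 CPM against 178 to 449 CPM. Between libraries of a group, Homer1 deviations correlated with those of the microglial sum at r = -0.486 and rho = -0.374 (n = 48). The adjusted permutation p was 0.0157 and 0.0595, so only the Pearson measure passed. Without the 2 farthest libraries r was -0.543. Within numbers 85, 88, 89, 91 and 92 it was -0.264, -0.506, -0.392, -0.245 and -0.828. The part of microglial RNA in the Homer1 difference was not tested.

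At cocaine day 1 the Homer1 difference rested in part on the shallow library. D1 levels ran from 18.7 through 25.4 to 29.7 CPM and A2a levels from 26.5 through 31.6 to 60.3 CPM, with 6 of 8 D1 libraries below every A2a library. The log2 difference was -0.47 ± 0.15 (adjusted p = 0.0278, edgeR quasi-likelihood test), and -0.33 ± 0.13 (adjusted p = 0.119) without A2a replicate 7. It also lost the call without D1 cocaine day 1 replicate 5 (adjusted p = 0.0568) or replicate 7 (adjusted p = 0.0648), and with the number in the library descriptions as a term (adjusted p = 0.0668). Within the libraries numbered 89, 91 and 92, the D1 minus A2a difference in mean log2 CPM was -0.22 (4 against 5 libraries), -0.54 (2 against 1) and -0.95 (2 against 2), the last of which includes replicate 7. In saline the types overlapped: D1 ran from 16.5 through 26.9 to 35.9 CPM and A2a from 18.2 through 25.8 to 37.6 CPM, and the log2 difference was -0.06 ± 0.15 (adjusted p = 0.904).

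Along the D1 groups the Homer1 means were 26.6 ± 5.74 CPM in saline, 24.2 ± 3.67 CPM at cocaine day 1 and 20.8 ± 3.73 CPM at day 40. The log2 change from saline to day 40 was -0.35 ± 0.15 (unadjusted p = 0.0208, adjusted p = 0.208, edgeR quasi-likelihood test), and only 1 of 8 day 40 libraries lay below every saline library. In A2a neurons the means were 27.7 ± 7.45, 34.1 ± 10.8 and 31.2 ± 4.38 CPM, and the change to day 40 was 0.17 ± 0.15 (adjusted p = 0.999). The interaction of neuron type with cocaine day 40 against saline was -0.53 ± 0.21 for Homer1 (unadjusted p = 0.0150, adjusted p = 0.381), where 0.154% of all genes passed. For the interactions with cocaine at day 1 and with withdrawal day, 0 of 9 members passed as well, against 0.00642% and 0.0642% of all genes. At an unadjusted p under 0.05 the members numbered 1 for the former, 0 for the latter and 1 for day 40 against saline. Of all genes, 3.35%, 10.5% and 8.92% met that rule, in the same order. DESeq2 passed 0 of 9 in each of the 3 interactions.

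Homer2 and Homer3, the other scaffold genes, gave no call. Homer2 had 10 to 96 counts per library, and its group means lay between 1.28 ± 0.59 CPM (A2a cocaine day 1) and 1.68 ± 0.48 CPM (D1 cocaine day 40). Homer3 group means lay between 4.40 ± 0.92 CPM (A2a cocaine day 1) and 5.92 ± 0.88 CPM (D1 saline). Its largest cocaine change was in A2a neurons from day 1 to day 40, 0.32 ± 0.15 (unadjusted p = 0.0320, adjusted p = 0.397, edgeR quasi-likelihood test), with 4 of 8 day 40 libraries above every day 1 library. In cocaine day 1 animals the D1 minus A2a log2 difference of Homer3 was 0.35 ± 0.15 (adjusted p = 0.128).

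Grm2, a group II receptor, had only 2 to 150 counts per library, and its D1 levels at day 40 and in saline did not differ past the threshold. In D1 neurons it ran from 0.534 through 0.858 to 1.42 CPM in saline, from 0.736 through 1.08 to 1.93 CPM at cocaine day 1, and from 0.761 through 1.78 to 4.36 CPM at day 40. At day 40, 5 of 8 libraries lay above every saline library. The log2 change from saline was 1.03 ± 0.38 (unadjusted p = 0.00929, adjusted p = 0.142, edgeR quasi-likelihood test). In A2a neurons the same comparison gave 0.74 ± 0.38 (adjusted p = 0.936), with means of 0.698 ± 0.54 and 1.16 ± 0.78 CPM. The D1 library with the highest value, replicate 7 of day 40, also held the most Slc17a6, the vesicular glutamate transporter of subcortical excitatory neurons, at 15.4 CPM.

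Grm3, the other group II receptor, which is also a receptor of astrocytes, gave no call with cocaine. Its group means lay between 32.0 ± 2.47 CPM (D1 saline) and 38.2 ± 11.1 CPM (A2a cocaine day 1), and the latter was 34.5 ± 3.46 CPM without replicate 7, which read 64.5 CPM. The 6 cocaine changes lay between -0.05 and 0.14 on the log2 scale, each with an SE of 0.10. Both ends rested on that library: without it the A2a change from saline to day 1 was 0.01 ± 0.08 in place of 0.14, and that from day 1 to day 40 was 0.08 ± 0.08 in place of -0.05. Within groups, Grm3 followed the summed astrocyte markers (Pearson r = 0.390, Spearman rho = 0.390, adjusted permutation p = 0.0214 and 0.0427, n = 48), and r was 0.434 without the 2 libraries farthest in the marker sum. The relation did not hold in every number: r was 0.620, -0.192, 0.521, -0.119 and 0.0862 among libraries numbered 85, 88, 89, 91 and 92.

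Grm4, a group III receptor of striatal output terminals, did not pass the test with cocaine in either neuron type. It ran from 95.3 through 104 to 121 CPM in A2a saline and from 73.1 through 93.6 to 107 CPM at cocaine day 1, with 5 of 8 cocaine libraries below every saline library. The log2 change was -0.22 ± 0.07 (unadjusted p = 0.00375, adjusted p = 0.484, edgeR quasi-likelihood test), and at day 40 the difference from saline was -0.08 ± 0.07 (adjusted p = 0.999). In D1 neurons the day 1 change was -0.08 ± 0.07 (adjusted p = 1.00). Grm7, the group III receptor of transmitter release sites, held means between 19.3 ± 1.5 and 20.7 ± 2.73 CPM in all 6 groups, and its cocaine changes lay between -0.09 and 0.05 with SE of 0.10. The 95% intervals for Grm7 left room for changes of at most 0.28 on the log2 scale in either direction.

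Grm8, the third group III receptor, had higher means in D1 than in A2a libraries in every condition and passed the test in saline and at cocaine day 1. In saline it ran from 1.92 through 4.58 to 8.78 CPM in D1 and from 1.61 through 2.47 to 3.22 CPM in A2a libraries. At cocaine day 1 the values were 3.22 through 5.53 to 8.20 CPM against 0.727 through 2.85 to 3.69 CPM, and at day 40 they were 2.51 through 6.56 to 15.2 CPM against 1.23 through 3.23 to 7.06 CPM. The D1 libraries above every A2a library numbered 7 of 8, 6 of 8 and 3 of 8. The log2 differences were 0.98 ± 0.32 (adjusted p = 0.0468), 1.05 ± 0.32 (adjusted p = 0.0257) and 0.81 ± 0.32 (adjusted p = 0.0601) by edgeR's quasi-likelihood test, so the last did not pass.

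Single libraries decided the Grm8 calls, though not their sign. Leaving out 1 library of the groups compared kept the call in 3 of 16 fits in saline (0.80 to 1.10), 12 of 16 at cocaine day 1 (0.90 to 1.14) and gave it in 5 of 16 at day 40 (0.52 to 1.01). Of these fits, those in saline passed only without D1 replicate 6 or 8 or A2a replicate 2, at cocaine day 1 it was lost without D1 replicate 2 or 6 or A2a replicate 2 or 3, and at day 40 it was gained without D1 replicate 1, 5 or 8 or A2a replicate 2 or 8. With the number in the library descriptions as a term, the saline and cocaine day 1 differences were 1.05 (adjusted p = 0.0170) and 1.06 (adjusted p = 0.00913). Within libraries numbered 89, 91 and 92 they were 0.80, 1.10 and 1.2 in saline and 1.46, 0.50 and 0.74 at cocaine day 1. Markers of other neurons also differed between the types. Of 7 interneuron markers tested, 3 were higher and 1 lower in D1 libraries in saline, and 4 were higher and 1 lower at each cocaine time. Among all genes, 4.12% were higher and 4.01% lower in saline, 5.53% and 5.56% at cocaine day 1, and 10.1% and 10.3% at day 40. Sst was higher by 2.09, 2.51 and 1.89 on the log2 scale in saline, cocaine day 1 and cocaine day 40, while Th was lower, with differences of -1.46, -1.78 and -1.44. Slc17a6, from the list of glutamate supply genes, was higher in D1 libraries at day 40 by 2.82 ± 0.68 (adjusted p = 0.00197). In D1 day 40 replicate 7, which held the most Slc17a6, Grm8 read 15.2 CPM. Within groups Grm8 followed Slc17a6 (Pearson r = 0.601, Spearman rho = 0.551, adjusted permutation p = 0.0036 and 0.0171 over 90 relations, n = 48), with r = 0.486 without the 2 libraries farthest in Slc17a6. Within libraries sharing a number, r was 0.864, 0.401, 0.300, 0.804 and 0.744 for 85, 88, 89, 91 and 92. Grm8 went against the D1 marker sum (r = -0.460, rho = -0.407), with r = -0.404 without the 2 farthest libraries and -0.794, -0.701, -0.196, -0.722 and -0.313 within those numbers. Their part in the neuron type difference was not tested.

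**Figure D3:**
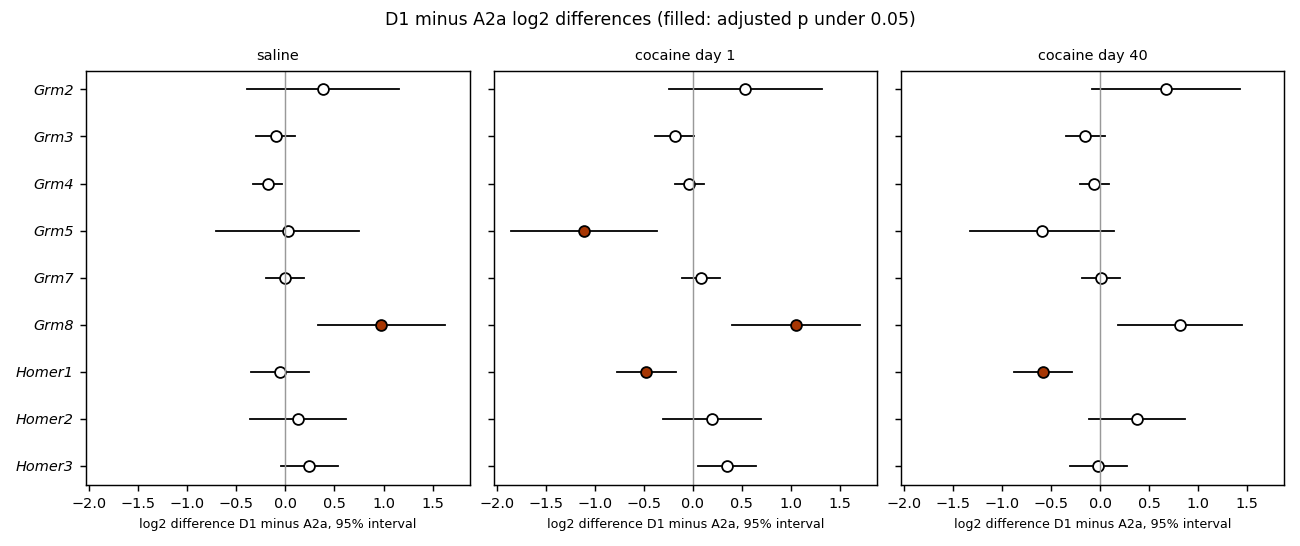
D1 minus A2a log2 differences of the 9 genes in saline, cocaine day 1 and cocaine day 40, with 95% intervals; filled points passed at an adjusted p under 0.05. Grm8 lies near 1 in all panels, and Homer1 lies at -0.06 in saline and -0.58 at day 40. These 2 Homer1 differences were not shown to differ (interaction adjusted p = 0.381, edgeR quasi-likelihood test). At day 40 the description number was 85 in D1 and 88 in A2a libraries.

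Between neuron types, 1 of 9 members passed in saline, where 8.13% of all genes did, 3 of 9 in cocaine day 1, where 11.1% did, and 1 of 9 in cocaine day 40, where 20.4% did. The third call at cocaine day 1 was Grm5, -1.11 ± 0.37 (adjusted p = 0.0429, edgeR quasi-likelihood test), which was -0.02 ± 0.18 (adjusted p = 0.972, where 10% of all genes passed) without A2a replicate 7 and passed in 9 of 16 fits that left out 1 library. It was also lost without D1 replicate 1, 2, 3, 4, 5 or 7, with adjusted p from 0.0517 to 0.0798. The Grm5 difference at day 40 was -0.59 ± 0.36 (adjusted p = 0.274) with that library and -0.59 ± 0.18 (adjusted p = 0.0144, where 21.5% of all genes passed) without it, and 5 of 8 D1 libraries lay below every A2a library. Averaged over the 3 conditions, a contrast added after seeing the data, 4 of 9 members passed, where 31.6% of all genes did. Grm8 was higher in D1 libraries by 0.95 ± 0.18 (adjusted p = 6.19e-05), while Homer1 (-0.37 ± 0.09, adjusted p = 0.000583), Grm5 (-0.56 ± 0.21, adjusted p = 0.0377) and Grm3 (-0.14 ± 0.06, adjusted p = 0.0473) were lower. Without A2a replicate 7, where 31.3% of all genes passed, only 2 of these 4 did, Grm8 at 0.95 ± 0.19 and Homer1 at -0.32 ± 0.08, and Grm5 was -0.19 ± 0.10 (adjusted p = 0.160).

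Ordered by mean, the gap between neighbouring groups was under the larger of their 2 SDs in 44 of 45 steps. Neighbours in such an order lie close by construction, so this says nothing of groups farther apart. The exception was Grm5, where A2a cocaine day 40 (10.5 ± 2.05 CPM) lay above D1 cocaine day 40 (6.95 ± 2.03 CPM) by 1.73 of the larger SD. For Homer1 the 3 A2a groups ranked above the 3 D1 groups, and for Grm8 the 3 D1 groups ranked above the 3 A2a groups.

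Grm5, Grm7 and Homer1 varied together between libraries of a group. Of the 36 pairs among the 9 members, 4 had deviations from the group means that correlated with adjusted permutation p under 0.05 by both Pearson and Spearman measures (48 libraries, 100000 permutations within groups, two-sided). Grm5 followed Homer1 (r = 0.751, rho = 0.734, p = 1e-05, the smallest the permutations can give, adjusted 0.00036). Without the 2 libraries farthest in Grm5, r was 0.708, and without A2a cocaine day 1 replicate 7 it was 0.715. Grm5 followed Grm7 (r = 0.604, rho = 0.571, adjusted p = 0.00036 and 0.00126) and Grm7 followed Homer1 (r = 0.640, rho = 0.474, adjusted p = 0.00036 and 0.0119). Without the 2 libraries farthest in the first gene these were 0.479 and 0.547. Grm2 ran against Homer1 (r = -0.498, rho = -0.535, adjusted p = 0.00549 and 0.00276), with r = -0.548 without the 2 farthest.

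Within the libraries that share a number, the Grm5 and Homer1 correlation was 0.750 (number 85), 0.278 (88), 0.835 (89), 0.786 (91) and 0.929 (92), over 8, 8, 15, 8 and 9 libraries. It was lowest in the A2a day 40 libraries, numbered 88. For Grm5 and Grm7 it was 0.0457, 0.393, 0.711, 0.509 and 0.787, for Grm7 and Homer1 0.528, -0.523, 0.506, 0.780 and 0.896, and for Grm2 and Homer1 -0.872, -0.663, -0.426, -0.631 and -0.419. Glial markers ran against Grm5, Grm7 and Homer1 over all libraries, but not all of them within every number. Homer1 deviations correlated with those of the summed oligodendrocyte precursor markers at r = -0.577 and rho = -0.511 (adjusted permutation p = 0.0036 and 0.0171) and with oligodendrocyte markers at r = -0.534 and rho = -0.483 (adjusted p = 0.00652 and 0.0241), and without the 2 farthest libraries r was -0.570 and -0.494. Grm5 deviations correlated with oligodendrocyte markers at r = -0.389 and rho = -0.430 (adjusted p = 0.0157 and 0.0299), with r = -0.374 without the 2 farthest. Within numbers 85, 88, 89, 91 and 92, r for Homer1 was -0.814, -0.621, -0.696, -0.195 and -0.516 with the precursor markers and -0.629, -0.308, -0.555, 0.0811 and -0.836 with the oligodendrocyte markers. For Grm5 and the oligodendrocyte markers it was -0.686, 0.137, -0.610, 0.219 and -0.615, so the sign turned in 88 and 91. Grm7 deviations correlated with the precursor markers at r = -0.449 and rho = -0.440 (adjusted permutation p = 0.0214 and 0.0299). With astrocyte markers they gave r = -0.415 and rho = -0.439 (adjusted p = 0.0388 and 0.0299). Without the 2 farthest libraries r was -0.433 and -0.390. Within those numbers it was -0.497, 0.0949, -0.537, -0.175 and -0.737 for the precursor markers. The part of glial RNA in the shared variation was not tested.

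**Figure D4:**
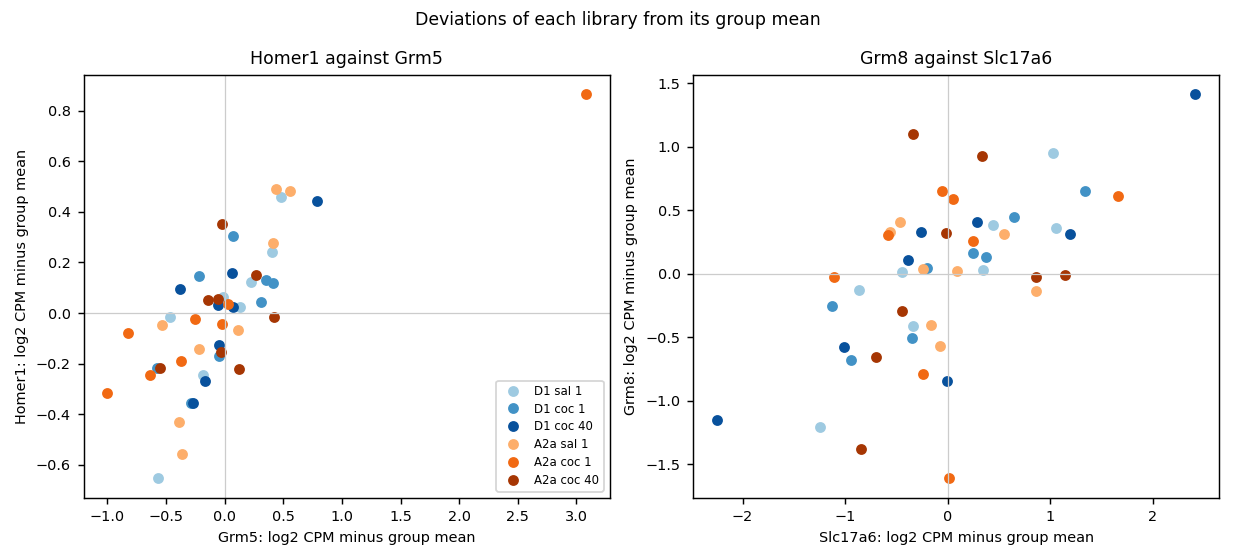
Each point is 1 of 48 libraries, plotted as log2 CPM minus its group mean; the left panel sets Homer1 (vertical) against Grm5 and the right panel Grm8 (vertical) against Slc17a6. Pearson r is 0.751 on the left, where A2a cocaine day 1 replicate 7 is the point at the upper right, and 0.601 on the right.

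Among 8099 genes with a mean of at least 10 CPM, those whose deviations were most like Grm5 were Unc80 (r = 0.90), a subunit of a sodium leak channel complex, and Nf1 (r = 0.897), a Ras GTPase activating protein; without the shallow library they were Abi2 (r = 0.825) and Frmpd4 (r = 0.821), the latter a scaffold that binds group I receptors and Homer. Those most like Homer1 were Nckap1 (r = 0.886), of the WAVE actin complex, and Actr2 (r = 0.874), of the Arp2/3 actin complex. Grm8 was most like Mc4r (r = 0.737), the melanocortin 4 receptor, and Tmem196 (r = 0.703). Grm7 was most like Slc4a10 (r = 0.761), a bicarbonate transporter. For Grm2, Grm3, Homer2 and Homer3 the nearest genes reached r of 0.608, 0.641, 0.514 and 0.558. These values describe 48 libraries that share preparation and are given without a test.

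Partners of the receptors were read from 4 lists chosen with earlier results of these data known. In the 6 cocaine comparisons, 0 of 20 group I effectors, 0 of 17 Homer and receptor scaffold partners and 0 of 9 genes of glutamate supply and clearance passed. Of 12 group II and III effectors and partners, 1 passed in 1 comparison. This was Elfn1, which in mouse places group III receptors across the synapse, in D1 neurons at day 40. It ran from 10.2 through 13.1 to 19.3 CPM in saline and from 12.4 through 19.5 to 37.7 CPM at day 40, and the log2 change was 0.68 ± 0.19 (adjusted p = 0.0383, edgeR quasi-likelihood test, where 1.07% of all genes rose). The groups overlapped, and the call was lost in 8 of 17 fits that left out 1 library (0.52 to 0.77), namely day 40 replicates 2, 4 and 7 and saline replicates 1, 5, 6, 7 and 8, with the weakest value, an adjusted p of 0.131, without day 40 replicate 7, the library richest in Slc17a6. The median log2 change from saline to day 40 in D1 neurons was -0.11 for the group I effectors and -0.16 for the scaffold partners, against -0.00767 for all genes, and 5 of 20 and 5 of 17 lay above 0. Without the shallow A2a library, a fit added after seeing the data, 1 of 17 scaffold partners passed from day 1 to day 40 in D1 neurons, where 2.18% of all genes did. This was Dlgap4, a postsynaptic scaffold gene, which fell, with means of 227 ± 20.5 and 191 ± 27.6 CPM (SD, n = 8 each). With all libraries the smallest adjusted p of the 17 was 0.0513 (edgeR quasi-likelihood test).

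Between neuron types the partners differed in both directions, where 4.12% of all genes were higher and 4.01% lower in D1 libraries in saline, 5.53% and 5.56% at cocaine day 1, and 10.1% and 10.3% at day 40. Group I effectors numbered 0 higher and 2 lower in D1 libraries in saline, 2 and 2 at cocaine day 1, and 4 and 3 at day 40, of 20 tested. Rgs2, which speeds the shutdown of Gq, was lower in D1 libraries in all 3 conditions, at 86.1 ± 10.1 against 117 ± 15.6 CPM in saline (log2 difference -0.44 ± 0.09, adjusted p = 0.000709, edgeR quasi-likelihood test). Plcb4, a phospholipase C, was higher in D1 libraries at both cocaine times, by 0.78 ± 0.18 and 1.01 ± 0.18 (adjusted p = 0.00260 and 4.58e-05). Without the shallow A2a library the group I effectors numbered 1 and 2, 4 and 1, and 5 and 3. Scaffold partners numbered 0 and 3, 1 and 0, and 0 and 4 of 17, and 0 and 4, 2 and 0, and 0 and 5 without that library. Shank3, which ties Homer to the postsynaptic density, was lower in D1 libraries, with log2 differences of -0.38 ± 0.11 in saline and -0.52 ± 0.11 at day 40, as was Dlg4, encoding PSD-95, with -0.19 ± 0.06 and -0.30 ± 0.06. Group II and III partners numbered 4 and 1, 3 and 1, and 4 and 1 of 12, with Elfn1 higher in D1 libraries by 0.71 ± 0.19, 0.83 ± 0.19 and 1.28 ± 0.19 and Gnao1, the Go subunit, lower each time. Ligand supply genes numbered 0 and 0, 0 and 1, and 2 and 0 of 9, the 2 being Slc17a6 and Slc17a8, both vesicular glutamate transporters. Interneuron and microglial markers also differed between these libraries, as given above, and their part in the partner counts was not tested.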

How the data were processed

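RNA on tagged ribosomes came from 48 rat brains, 8 in each of 6 groups, and replicates were taken as separate animals. The authors deposited counts for each of 32883 genes as whole numbers with no scaling. The submitters' processing notes name bcl2fastq, Trimmomatic, STAR, SAMtools and the Rnor_6.0 build; how reads were counted, with which annotation, strand setting or tool versions, is not given in the sources used here. Reads of overlapping or antisense genes therefore could not be separated. Input RNA was not analysed here. The members and gene lists were chosen with earlier results of these data known. Named genes were the 9 members, the 2 genes most like each, list genes that passed with cocaine, and up to 3 per list and direction between neuron types; some of these are not reported here.

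Counts were fitted in edgeR 4.0.16 (R 4.3.3) after its expression filter (minimum count 10; 15580 genes kept) and TMM scaling. One robust quasi-likelihood model held all 6 groups, and p-values were adjusted by Benjamini-Hochberg over all genes, at 0.05. The SE of a log2 change was its size over the root of the F statistic. CPM used TMM-scaled totals, and log2 CPM a prior count of 2. Alternatives were median-of-ratios factors, no filter, a replicate block, limma-voom (limma 3.58.1), DESeq2 1.42.0, only the groups compared, the description number as a term, unscaled totals and leaving out single libraries. Fits without the shallow library where it enters no comparison, and the averaged contrast, were added after seeing the data. No libraries of a group were duplicates (lowest chi-square per gene 10.3 over 168 pairs). The fit was tested on simulated data. Correlations used Python 3.11.15, numpy 2.4.6 and scipy 1.17.1.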

Additional observations from a re-analysis of the deposited data

Results flagged for a closer look

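Within each group of 8 libraries, the highest and lowest value of each gene was compared with its nearest neighbour; a gap above Dixon's 95% critical share of the group's range was taken as standing apart. This held in 9 of 54 groups, and chance gives about 1 in 20. Of the 9, 4 came from A2a cocaine day 1 replicate 7, the library with 5293586 counts: Grm5 at 120.5 CPM (next 14.5), Grm3 at 64.45 CPM (next 41.51), Homer1 at 60.26 CPM (next 33.82) and Grm7 at 27.08 CPM (next 20.53). In D1 cocaine day 40 replicate 7, Grm8 read 15.18 CPM (next 7.533) and Grm2 4.355 CPM (next 2.147), and Slc17a6 in the same library was 15.42 CPM. Grm5 read 11.69 CPM in D1 cocaine day 40 replicate 1 (next 7.105). Grm7 read 14.61 CPM in D1 cocaine day 1 replicate 7 (next 19.35), and Homer2 read 2.126 CPM in A2a cocaine day 40 replicate 7 (next 1.412).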

How the results depend on the processing

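No value among the 9 genes that had passed changed sign under any alternative run. In the main fit, 8.13%, 11.1% and 20.4% of all genes passed between neuron types in saline, cocaine day 1 and cocaine day 40, and 31.6% in the average. For D1 day 40 the shares were 2.61% against saline and 1.85% against day 1. Shares in most alternative fits are not given here, so the member counts that follow are not set against them. The number of members that passed between neuron types in saline was 0 in place of 1 without the low-count filter, with limma-voom and with the replicate block; in cocaine day 1 it was 1 in place of 3 with limma-voom and with the description number as a term, and 2, without Grm5, with no filter (adjusted p = 0.0627), the replicate block (0.214), DESeq2 (0.979) or only those groups fitted (0.277); in cocaine day 40 it was 3 in place of 1 with DESeq2 and 2 when only those groups were fitted; averaged over conditions it was 2 in place of 4 without the filter. In D1 day 40 against saline it was 1 in place of 0 with DESeq2 and in the fit of those groups alone, and in D1 day 40 against day 1 it was 1 with DESeq2, Grm5 each time. Leaving out 1 library of the groups compared gave 0 to 1 in saline, 1 to 3 in cocaine day 1, 1 to 2 in cocaine day 40, 2 to 5 in the average and 0 in each cocaine comparison; leaving out A2a cocaine day 1 replicate 7 gave 1 in D1 day 40 against saline. The cause of these shifts was not tested, except that a spread estimated without that library is smaller by construction for Grm5. Libraries of different groups that share a replicate number, which is not the description number, deviated together only weakly. Their median correlation was 0.0563, against -0.0106 for other pairs, and 26 of 120 pairs were over 0.1. By replicate number the median ran from 0.0296 to 0.0892. The replicate numbers were not taken as pairing in the main fit. With the replicate number as a block, Grm8 in saline was 1.00 (adjusted p = 0.0567), Grm5 in cocaine day 1 was -0.70 (adjusted p = 0.214), the averaged Grm5 was -0.41 (adjusted p = 0.106) and the averaged Grm2 was 0.61 (adjusted p = 0.0363). Low counts limit Grm2 and Homer2, at 2 to 150 and 10 to 96 counts per library.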
